A study of Mus musculus with 17 samples.

Results

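Progenitor fractions of mouse bone marrow were compared across a branch point: the lympho-myeloid fractions CLP and preGM against the megakaryocyte-erythroid fractions preMegE, MkP and preCFUE. All 17 arrays of the series entered, 6 on the lympho-myeloid side and 11 on the megakaryocyte-erythroid side. For each gene the mean of the CLP and preGM group means was set against the mean of the preMegE, MkP and preCFUE group means, on the scale log2(intensity + 16), and this quantity is called the side difference. A gene was called shared when CLP and preGM each differed from each of the 3 other fractions in the same direction, which makes 6 pairs, with an adjusted p under 0.05 in every pair. Of 17401 autosomal genes, 300 were shared and higher in the lympho-myeloid fractions (1.72%) and 71 were shared and lower (0.408%).

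All cells came from the marrow of mice aged 10 to 14 weeks, and the labels give no strain, genotype or treatment. CLP, common lymphoid progenitors, were sorted as Lin-Sca1lowKitlowIL7r+Flk2+ (3 arrays). The preGM fraction, which precedes granulocytes and monocytes, was Lin-Sca1-Kit+Itga2b-FcgRlowSlamf1-Englow (3 arrays). The preMegE fraction, a precursor of megakaryocytes and red cells, had the preGM gate except that it was Slamf1+ (5 arrays), and preCFUE, an early erythroid stage, was Slamf1+ and Enghigh (3 arrays). MkP, megakaryocyte progenitors, were Lin-Sca1-Kit+Itga2b+Slamf1+ (3 arrays). Lin- means that cells with markers of mature blood lineages were removed. The number of mice or sorts behind each array is not in the labels, so the spread that the p-values rest on is that among arrays and may be technical. A fraction is a gate that can hold several cell types, and fewer cells of a type and less RNA per cell cannot be told apart in such bulk measurements.

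Lymphoid and granulocyte-monocyte precursors share a part of their gene programme before they separate. Transcription factors such as PU.1, Ikaros and IRF8, receptors such as Flt3, and genes of leukocyte adhesion, motility and antigen presentation belong to it. Megakaryocytes and red cells share another, built on GATA factors with their cofactor FOG1 (Zfpm1), on Tal1 and on Gfi1b, before KLF1 directs the erythroid branch and Fli1 the megakaryocytic one.

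Upstream sequences show where the letters known to be bound by such factors stand in front of genes of the shared lists. The 250 bases before the start site are given for the first genes of each direction, Dntt and Bex6 (higher) and Mfsd2b and Aldh1a1 (lower). Those of BC035044, Atp8b4 and Icam4 were added after their values and motifs had been seen, as examples with a motif. BC035044 and Atp8b4 were picked as higher genes with a PU.1 match, and Icam4 as a lower gene with a GATA match. The pairing of motif and direction in these examples was thus set by the choice. Sequences and coordinates are from RefSeq on GRCm38.p6, each 5′ to 3′ on its gene's strand, which is plus for Dntt, Bex6, Aldh1a1 and Icam4 and minus for BC035044, Atp8b4 and Mfsd2b. For Aldh1a1, which has 2 start sites in the table, the one farthest upstream was used. Capitals mark a match to 1 of 6 motifs on either strand. GATA factors are known to bind AGATAA, and PU.1 binds GAGGAAGT. KLF1 is known for CCACACCC, RUNX factors are known for TGTGGTT, and C/EBP factors for TTGCNNAA. The E-box of Tal1 and the E proteins is CAGCTG.

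Dntt chr19:41029025-41029274: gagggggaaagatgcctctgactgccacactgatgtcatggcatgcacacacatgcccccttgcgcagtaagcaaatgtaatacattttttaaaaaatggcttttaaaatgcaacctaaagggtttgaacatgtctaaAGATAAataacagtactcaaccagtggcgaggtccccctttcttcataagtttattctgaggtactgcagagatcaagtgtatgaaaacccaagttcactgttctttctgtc
Bex6 chr16:32179550-32179799: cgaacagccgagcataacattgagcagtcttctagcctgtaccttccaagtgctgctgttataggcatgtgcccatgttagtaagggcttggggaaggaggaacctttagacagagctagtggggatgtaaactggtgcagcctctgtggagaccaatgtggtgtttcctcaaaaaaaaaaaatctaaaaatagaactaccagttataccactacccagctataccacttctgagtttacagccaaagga
BC035044 chr6:128891125-128891374: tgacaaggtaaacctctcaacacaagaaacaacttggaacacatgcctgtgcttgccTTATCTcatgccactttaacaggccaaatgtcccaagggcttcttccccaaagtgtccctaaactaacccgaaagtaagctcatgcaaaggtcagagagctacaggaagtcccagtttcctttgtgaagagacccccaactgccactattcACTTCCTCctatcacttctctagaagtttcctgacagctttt
Atp8b4 chr2:126491554-126491803: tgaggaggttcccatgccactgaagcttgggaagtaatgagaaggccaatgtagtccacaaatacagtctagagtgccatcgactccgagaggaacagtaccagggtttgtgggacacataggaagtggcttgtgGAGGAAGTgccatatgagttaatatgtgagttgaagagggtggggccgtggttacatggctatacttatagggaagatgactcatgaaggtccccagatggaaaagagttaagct
Mfsd2b chr12:4874360-4874609: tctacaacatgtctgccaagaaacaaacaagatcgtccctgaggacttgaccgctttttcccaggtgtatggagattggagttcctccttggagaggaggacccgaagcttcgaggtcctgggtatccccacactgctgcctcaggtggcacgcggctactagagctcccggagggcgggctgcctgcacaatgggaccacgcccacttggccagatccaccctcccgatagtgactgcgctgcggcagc
Aldh1a1 chr19:20492333-20492582: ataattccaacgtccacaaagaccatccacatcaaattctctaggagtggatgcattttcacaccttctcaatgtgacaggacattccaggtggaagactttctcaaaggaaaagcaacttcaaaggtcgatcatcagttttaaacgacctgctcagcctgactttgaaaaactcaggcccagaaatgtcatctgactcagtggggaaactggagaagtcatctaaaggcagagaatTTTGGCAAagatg
Icam4 chr9:21029182-21029431: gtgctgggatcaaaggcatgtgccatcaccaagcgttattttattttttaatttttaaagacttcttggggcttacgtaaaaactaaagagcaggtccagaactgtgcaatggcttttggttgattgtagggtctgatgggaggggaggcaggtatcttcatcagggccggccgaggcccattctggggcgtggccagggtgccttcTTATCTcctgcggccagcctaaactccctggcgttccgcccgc

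Dntt holds a GATA match that starts 112 bases before the start site, and Icam4 holds one at 43 bases on the other strand. BC035044 holds a GATA match at 193 bases and a PU.1 match at 42 bases, both on the other strand. Atp8b4 holds a PU.1 match at 115 bases on the printed strand. Aldh1a1 holds a C/EBP match at 13 bases on the other strand, and Bex6 and Mfsd2b hold none of the 6. The matches did not overlap each other in these windows. A match is a description of letters and not a site of binding, and the wider counts are given after the expression results.

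The arrays were compared before the genes. Within a fraction the array correlations ran from 0.940 to 0.996, lowest in CLP. CLP replicate 2 correlated with preGM at 0.961 and with the other CLP arrays at 0.949, and was the only array whose mean correlation was higher with another fraction. Its log2 ratio of 3-prime to 5-prime Gapdh signal, a sign of RNA quality and amplification, was 3.00. The ratio was 5.12 and 4.08 in the other CLP arrays and 2.72 to 3.94 in preGM. With it as a covariate 1123 genes past the test of the side difference also differed between CLP and preGM, against 1401 without. The other counts rose with this covariate. On the lympho-myeloid side 1745 genes were higher and 2232 lower, against 1567 and 1769 without, and 326 and 79 were shared, against 300 and 71. Among preMegE, MkP and preCFUE 2102 of the called genes differed, against 1673. Counts for gene lists are given also without CLP replicate 2 where they differ. Some defining markers were confined to their gate, and others were not. Rag1 and Ebf1 were at 1127 ± 756 and 941 ± 262 (SD, n = 3) in CLP and no other array exceeded 9.67 for either gene. Cebpa was at 164 ± 51.0 in preGM, and between 12.7 and 16.1 as a mean in each other fraction. Pf4 was at 6431 ± 316 in MkP and Klf1 at 2917 ± 209 in preCFUE. Klf1 did not set preCFUE apart from preMegE, where it was 3200.3 in replicate 3 and 1722 to 2129 in the other arrays. Dntt, Mpo and Tfrc, also taken as markers, were not confined to their fractions either, as their values below show. Summed markers of mature neutrophils varied among arrays, with ranges of 107 to 244 in CLP, 242 to 1799 in preGM, then 119.9 to 1777 in preMegE and 147 to 1585 in MkP, with preCFUE at 239 to 457, and 0 of these 8 genes passed the test of the side difference.

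By limma, 1567 genes were higher on the lympho-myeloid side (9.01% of those tested) and 1769 were lower (10.2%), 540 and 332 of them by at least 2-fold. With all arrays the numbers in the 2 directions were thus alike, but without CLP replicate 2 there were 1672 higher and 2477 lower. The share of called genes that held in every pair was unequal. With all arrays, 19.1% of the genes called higher were shared, against 4.01% of those called lower. Without CLP replicate 2 the shared lists held 287 and 69 genes, of which 262 and 69 were in the full lists. The arrays of the sides did not overlap for 376 genes on the higher side (2.16%) and 117 on the lower (0.672%), whether or not those genes passed every pair. At the edge of the higher list, Zc3hav1l was inside with a largest adjusted p over the 6 pairs of 0.0499 and Plcg2 outside with 0.0509. At the edge of the lower list, Ctf1 was inside with 0.045 and Lhfpl2 outside with 0.0631. The shared lists were picked by these same contrasts, so their values in the next paragraphs describe the members.

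**Figure D1:**
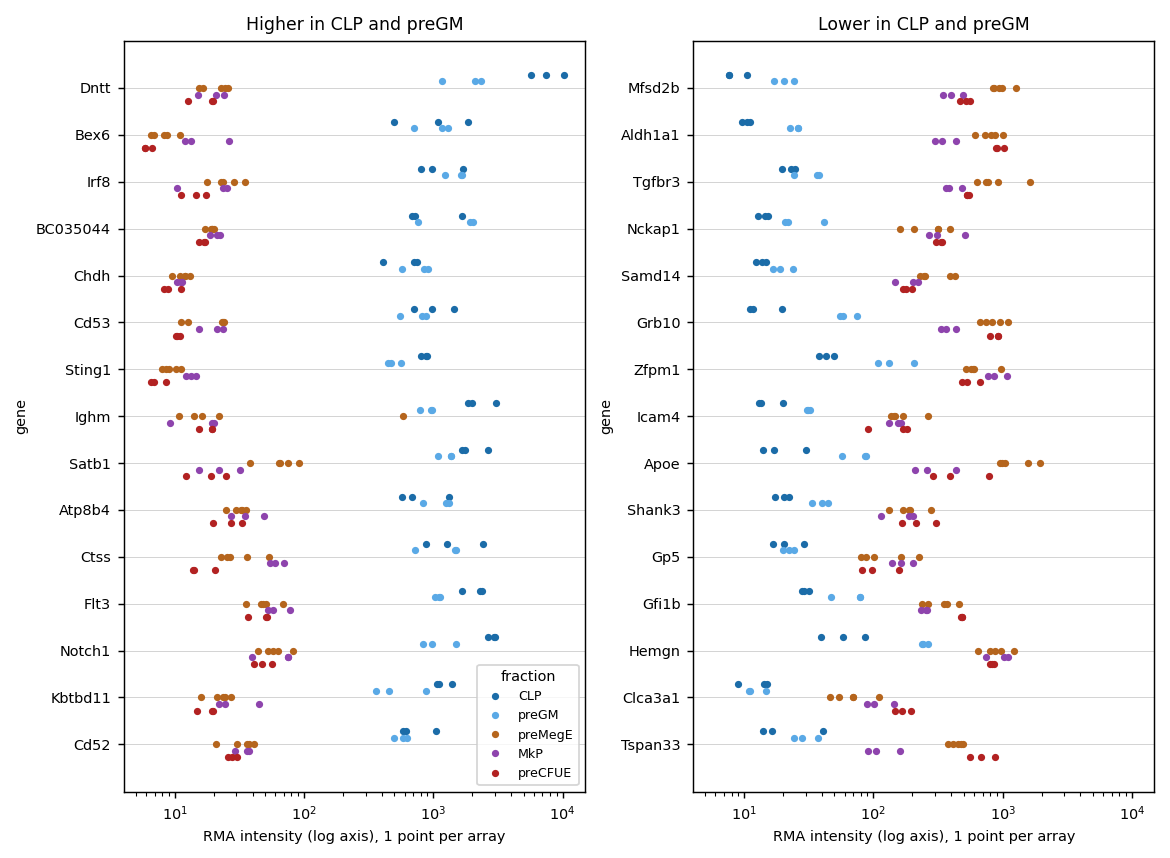
RMA intensity on a log axis for the 15 shared genes of each direction whose smallest difference over the 6 pairs was largest. Each point is 1 array, coloured by fraction, and the sides do not overlap for any of these genes. The closest approach is that of preMegE replicate 5 for Ighm, at 583 against a lowest lympho-myeloid value of 786.

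Dntt, which encodes terminal transferase, the enzyme that adds nucleotides at the joints of rearranging antigen receptor genes, had the largest side difference of the shared genes. Its intensities were 7463, 10275 and 5702 in the CLP arrays, 2098, 2332 and 1168 in those of preGM, 15.4, 24.6, 22.7, 16.5 and 25.9 in those of preMegE, 21, 23.9 and 15.2 in those of MkP and 12.6, 19.9 and 19.3 in those of preCFUE. The lowest CLP or preGM array stood at 1168 and the highest other array at 25.9, with a side difference of 6.72 ± 0.15 (SE). CLP was above preGM by 2.08 on the log2 scale (limma adjusted p = 6.6e-05), so the gene was high in preGM and higher still in CLP. Its probe set carries the suffix that Affymetrix gives to probes which may also match other transcripts.

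Among regulators, Irf8, a transcription factor of monocytes, dendritic cells and B cells, overlapped between CLP and preGM. Its intensities were 978, 1699 and 810 in the CLP arrays, 1664, 1627 and 1234 in those of preGM, 22.9, 23.7, 34.9, 17.7 and 28.9 in those of preMegE, 23.5, 10.4 and 25.2 in those of MkP and 14.5, 11.1 and 17.6 in those of preCFUE. The side difference was 5.21 ± 0.15, and CLP minus preGM was -0.43, which did not pass (limma adjusted p = 0.218). Satb1, a chromatin organiser of early lymphocytes, was 1097 to 2651 in the 6 lympho-myeloid arrays. In preMegE it was 38.1 to 92.1, above the 12.2 to 31.8 of MkP and preCFUE, and the megakaryocyte-erythroid fractions differed among themselves (F test adjusted p = 0.00133). Notch1, the receptor that directs T cell fate, was 2998, 2935 and 2635 in the CLP arrays, 837, 973 and 1493 in those of preGM, 62.8, 52.8, 81.7, 57.2 and 43.8 in those of preMegE, 75.9, 39.6 and 75.2 in those of MkP and 56.9, 47.7 and 41.3 in those of preCFUE. CLP stood above preGM for this gene (1.40, limma adjusted p = 0.00119), and preGM above all 11 remaining arrays.

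Leukocyte surface genes were also in the leading group. Cd53, a tetraspanin of white blood cells, was 554 to 1442 on the lympho-myeloid side and 10.2 to 24.2 on the other (side difference 4.77 ± 0.15). Cd52, a small lipid-anchored glycoprotein of lymphocytes, was 499 to 1044 against 20.8 to 41.0 (3.78 ± 0.12). Neither differed between CLP and preGM past the test (adjusted p = 0.199 and 0.219). Flt3, a cytokine receptor whose protein Flk2 was part of the CLP gate but not of the preGM gate, was 1662 to 2389 in CLP and 1032 to 1126 in preGM, against 35.5 to 77.5 elsewhere. CLP was selected for it, so its level there is no finding, whereas preGM was not.

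Ighm, the constant region of the mu heavy chain, was 1873, 2012 and 3073 in the CLP arrays, 786, 969.8 and 956 in those of preGM, 16.2, 14.1, 22, 10.8 and 583 in those of preMegE, 19.5, 9.12 and 20.3 in those of MkP and 15.5, 19.5 and 19.5 in those of preCFUE. Of the 11 megakaryocyte-erythroid arrays, 10 were at 22.0 or below, and preMegE replicate 5 was high. The side difference was 5.19 ± 0.53, and 5.48 without that array (limma adjusted p = 9.6e-12). These values come from the brightest probe set of Ighm. When all probe sets of this gene were averaged instead, the difference fell to 0.86 and still passed (limma adjusted p = 2.29e-06). The size of the Ighm difference thus depended on the choice of probe set. Markers of mature B and plasma cells summed to 436 to 689.6 in preMegE, and their part in the result was not tested. Over all fractions 2 of these 7 markers, Fcer2a and Sdc1, were higher on the lympho-myeloid side (1 without CLP replicate 2, under quantile normalization or under median centring), and 3 of the 7 had a mean under 16 in every fraction.

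Other leading genes act in lysosomes, innate sensing and metabolism. Ctss, the lysosomal protease that trims the MHC class II chaperone, was 719.9 to 2441 on the lympho-myeloid side and 13.8 to 69.7 on the other. Sting1, an adaptor that detects cyclic dinucleotides, was 809.7 to 895 in CLP, 448 to 559 in preGM and 6.61 to 14.5 in the rest. Chdh, a mitochondrial enzyme that oxidises choline, was 409 to 919 against 8.28 to 13.1. Bex6, whose role is not well known, was 501 to 1854 against 5.86 to 26.3, with a CLP minus preGM difference of -0.022. The remaining genes of the leading 15, BC035044, Atp8b4, a flippase of membrane lipids, and Kbtbd11, had side differences of 5.09, 4.36 and 4.37.

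The lower list was led by genes of lipid export, retinoid metabolism and growth factor signalling. Mfsd2b, whose product carries sphingosine-1-phosphate out of blood cells, was 10.5, 7.68 and 7.63 in the CLP arrays, 16.9, 20.3 and 24.4 in those of preGM, 994, 842, 1275, 863 and 939 in those of preMegE, 345, 492 and 398 in those of MkP and 521, 555 and 467 in those of preCFUE. The highest lympho-myeloid array was at 24.4 and the lowest other array at 345, with preMegE the highest fraction at 982 ± 175 (n = 5). The side difference was -4.34 ± 0.09. Aldh1a1, which makes retinoic acid from retinaldehyde, was 10.6, 9.67 and 11.1 in the CLP arrays, 26.2, 25.9 and 22.7 in those of preGM, 877, 607, 1014, 813 and 725 in those of preMegE, 298, 439 and 337 in those of MkP and 884, 1019.8 and 905 in those of preCFUE. Its side difference was -4.32 ± 0.10, and both genes were slightly lower in CLP than in preGM (by 0.57 and 0.63, limma adjusted p = 0.0213 and 0.0169).

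Signalling genes followed. Tgfbr3, a coreceptor for TGF-beta, was 19.7 to 38.2 on the lympho-myeloid side and 367 to 1621 on the other (side difference -3.79 ± 0.16). Grb10, an adaptor that restrains growth factor receptors, was 11.2 to 19.5 in CLP, 54.9 to 74.8 in preGM and 336 to 1092 in the other arrays. Thus preGM stood between CLP and the megakaryocyte-erythroid fractions for Grb10 (CLP minus preGM -1.38, limma adjusted p = 9.84e-05). Nckap1, a subunit of the WAVE actin-nucleating complex, was 12.8 to 41.2 against 162 to 511, and Samd14 was 12.4 to 23.8 against 146 to 429.6.

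The shared lower members of the list of megakaryocyte-erythroid regulators were Zfpm1, Gfi1b, Klf1 and Tal1. Zfpm1, which encodes the GATA cofactor FOG1, was 38.2, 43.3 and 49.6 in the CLP arrays, 109, 131 and 205 in those of preGM, 585, 566, 971, 517 and 601 in those of preMegE, 859, 1081 and 768 in those of MkP and 489, 526 and 666 in those of preCFUE. Again preGM was above CLP (by 1.42 on the log2 scale, limma adjusted p = 0.00124) and below all 11 other arrays. Gfi1b, a repressor needed for both red cells and platelets, was 27.9 to 31.8 in CLP, 46.8 to 78.8 in preGM and 235 to 486 elsewhere. Klf1, the main erythroid activator, was 38.9, 49.7 and 56.4 in the CLP arrays, 127, 148 and 114 in those of preGM, 2129, 1819, 3200.3, 1840.4 and 1722 in those of preMegE, 316, 342 and 182 in those of MkP and 3065, 2678 and 3009 in those of preCFUE. MkP was the low fraction of its side for Klf1 at 279.8 ± 85.8 (n = 3), yet still above preGM at 129.9 ± 17 (n = 3). Tal1 was at 73.7 ± 17.7 in CLP, 214 ± 30.7 in preGM and 379 to 622 as a mean in the others. Hemgn, a nuclear protein of erythroid and megakaryocytic cells, was 39.3 to 85.6 in CLP, 237 to 263 in preGM and 649.7 to 1219 in the other arrays, which had near equal means of 902, 953 and 821.

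Genes of the platelet and red cell surface were also shared. Gp5, a subunit of the platelet receptor for von Willebrand factor, was 16.7 to 29.1 against 80.3 to 225. Icam4, the red cell adhesion molecule of the LW blood group, was 13.0 to 32.5 against 90.8 to 266, and Tspan33, a tetraspanin, was 14.1 to 40.5 against 91.1 to 869.9. Neither Gp5 nor Icam4 differed among preMegE, MkP and preCFUE past the test (F test adjusted p = 0.393 and 0.745), while Tspan33 was lower in MkP (118) than in preMegE (443) and preCFUE (704). Apoe, the lipid carrier, was 14.1 to 29.9 in CLP, 56.8 to 88.5 in preGM, and 955 to 1930 in preMegE against 209 to 783 in MkP and preCFUE. Shank3, a scaffold protein best known from synapses, and Clca3a1, of a family of chloride channel regulators, completed the leading 15 with side differences of -2.21 and -2.13.

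**Figure D2:**
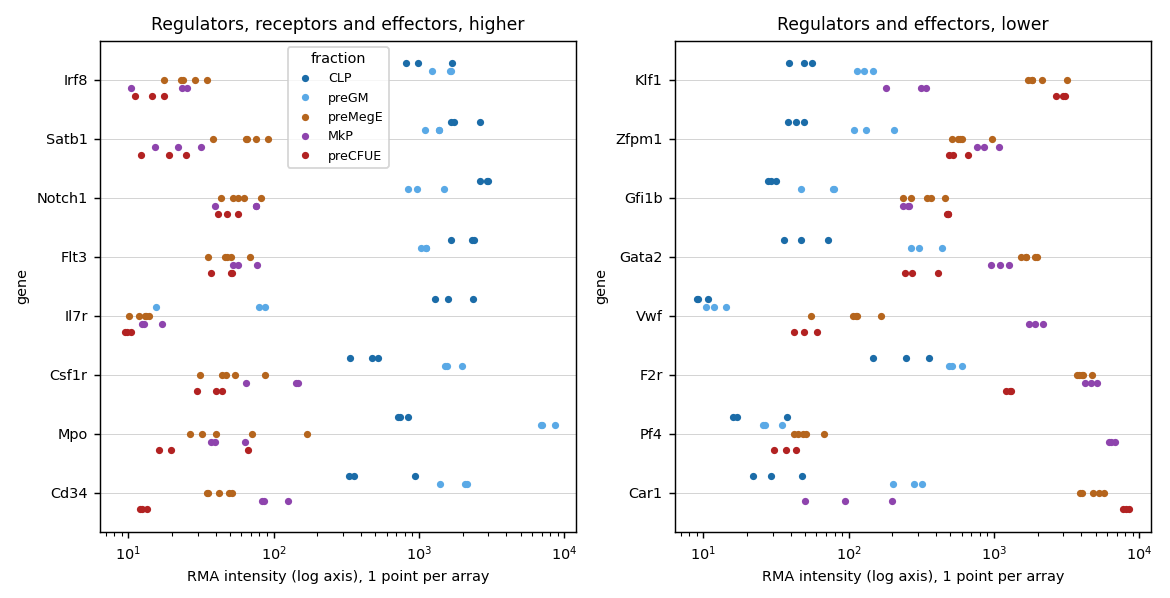
RMA intensity on a log axis for 16 regulators, receptors and effectors, 1 point per array and coloured by fraction. On the left, Mpo and Csf1r are highest in preGM and Il7r in CLP, while Irf8 is alike in both. On the right, Zfpm1 and Gfi1b are raised in all 3 megakaryocyte-erythroid fractions, Pf4 in MkP alone (6148 to 6772), and Car1 in preMegE and preCFUE.

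Genes whose proteins the sort used are given as a check of the gates and not as findings. Il7r, part of the CLP gate, was at 1752 ± 553 in CLP, and at 60.5 ± 39.2 in preGM against 9.88 to 14.1 as a mean elsewhere. Slamf1, which separates preGM from preMegE, was at 12.1 ± 1.44 in CLP and 10.6 ± 1.75 in preGM, compared with 101 ± 13.2 in preMegE, 58.6 ± 7.19 in MkP and 20.4 ± 1.89 in preCFUE. Itga2b, the megakaryocyte integrin CD41, was at 2058 ± 249 in MkP. Eng, selected as high in preCFUE, was at 237 ± 44.2 there and 234 ± 16.2 in preMegE, so the array did not separate these fractions. Kit was at 110.4 ± 54.8 in CLP, which was sorted as Kit low, and Fcgr3 at 35.0 ± 8.21 in preGM against 13.0 to 15.9 as a mean elsewhere. Fcgr2b did not pass (0.17).

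A side difference can also be carried by 1 fraction. CLP minus preGM was tested in the same fit, and over all autosomal genes 893 were higher in CLP (5.13%) and 2303 lower (13.2%). Among the genes called higher, 334 were above preGM in CLP (21.3%), 276 were below (17.6%) and 957 did not pass. Among the genes called lower, 7 were above preGM in CLP (0.396%) and 784 were below (44.3%). Of those 784, preGM was also below the megakaryocyte-erythroid mean past the test in 146. For 1257 of the 1769 genes preGM alone was not lower past the test than the mean of those fractions, against 102 for CLP alone. The 784 varied with single arrays: the count was 1659 without CLP replicate 2, and 416, 350, 379 and 359 without CLP replicates 1 and 3 and preGM replicates 1 and 2. In that order these were 67%, 27.7%, 24.5%, 22.3% and 22.4% of the genes called lower. The share of all genes lower in CLP than in preGM moved likewise, to 21.9%, 6.32%, 5.55%, 5.88% and 5.83%. Of the shared genes, 71 of 300 higher genes were above preGM in CLP and 34 below, and of the 71 lower genes 0 were above and 27 below.

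**Figure D3:**
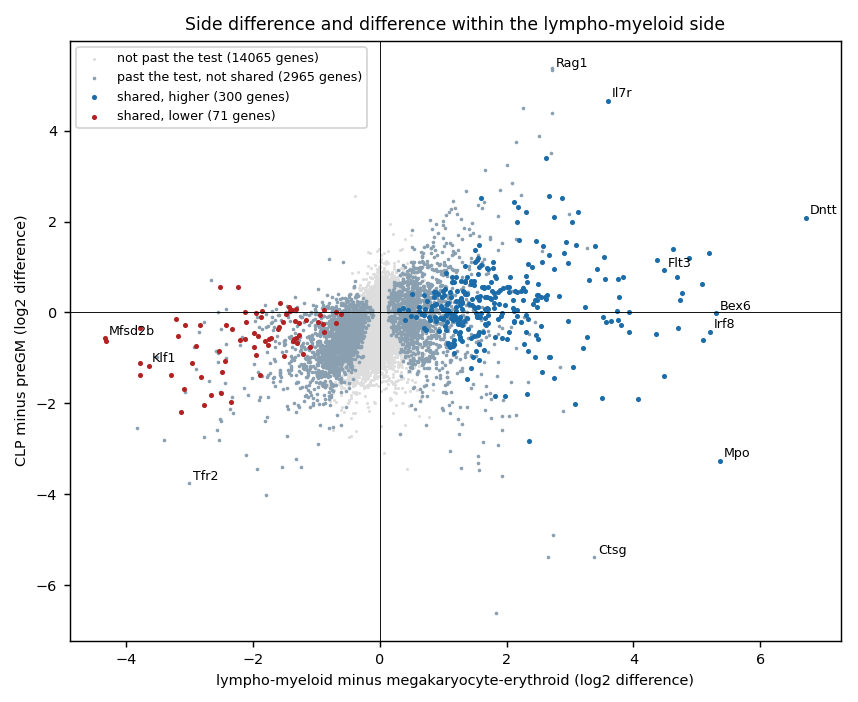
Side difference (x axis) against CLP minus preGM (y axis), both log2 differences, 1 point per autosomal gene. The shared higher genes (blue, 300) lie on both sides of the horizontal line, from Il7r at 4.66 to Mpo at -3.26, whereas the genes called lower lie mostly below it, with Tfr2 at -3.76.

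The genes called higher but not shared, with the widest gap between CLP and preGM, were Prtn3, Ctsg and F13a1, high in preGM, and Rag1 and Ebf1, high in CLP. Prtn3, the neutrophil protease proteinase 3, was 27.3, 35.8 and 24.5 in the CLP arrays, 4985, 5042 and 3407 in those of preGM, 98.9, 84.7, 142, 99 and 188 in those of preMegE, 226, 184 and 117 in those of MkP and 58.9, 41.3 and 99.8 in those of preCFUE. Its preGM arrays were at 3407 or above and every other array at 226 or below. CLP, at 29.2 ± 5.88, lay below all 11 megakaryocyte-erythroid arrays, and CLP minus preGM was -6.62 ± 0.30. Ctsg, cathepsin G, and F13a1, the A chain of coagulation factor XIII, were at 3297 ± 879 and 1231 ± 288 (n = 3) in preGM. Their means elsewhere were 31.3 to 61.4 and 11.7 to 16.2. Rag1, which cuts DNA to start antigen receptor rearrangement, was 797, 1991 and 591 in the CLP arrays, 8.66, 9.67 and 8.02 in those of preGM, 9.12, 8.27, 7.78, 7.4 and 7.9 in those of preMegE, 9.37, 8.19 and 7.28 in those of MkP and 6.87, 6.75 and 7.83 in those of preCFUE. Ebf1, a B cell factor, was 647 to 1147 in CLP and 5.32 to 7.38 in all others. For both genes preGM was as low as the megakaryocyte-erythroid fractions.

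On the lower side the widest gaps all had preGM above CLP. Tent5a, of the poly(A) polymerase family, was 8.52, 14.8 and 10 in the CLP arrays, 379.9, 485 and 401 in those of preGM, 1390.4, 853, 1281, 1119 and 1024 in those of preMegE, 48.8, 70.3 and 41.8 in those of MkP and 697, 671 and 608 in those of preCFUE. It was low in CLP and MkP and high in preMegE and preCFUE, with preGM in between. Tfr2, the iron-sensing transferrin receptor 2, was 28.4 to 35.3 in CLP, 562 to 798 in preGM, 646 to 783 in MkP and 1493 to 2587 in preMegE and preCFUE. Muc13, a membrane mucin, was at 92.8 ± 11.6 in CLP, 1167 ± 55.4 in preGM and 765 to 2439 as a mean in the others. Rab38, a small GTPase of lysosome-related organelles, was at 89.0 ± 9.85 in CLP and 1116 ± 269 in preGM (n = 3 each), within the 683 to 1359 of the megakaryocyte-erythroid arrays. Fkbp9, a folding enzyme of the endoplasmic reticulum, was at 18 ± 3.96 in CLP, and at 346 ± 90.5 in preGM, compared with 169 ± 40.5 in preMegE, 549 ± 110.1 in MkP and 157 ± 11.8 in preCFUE. For Rab38 and Fkbp9 the low level was that of CLP.

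The megakaryocyte-erythroid fractions differed among themselves for 3333 genes by the F test (19.2% of all). This held for 570 of the genes called higher (36.4%) and 1103 of those called lower (62.4%). Among the shared genes it was 99 of 300 higher (33.0%) and 47 of 71 lower (66.2%). The shared higher genes had their highest megakaryocyte-erythroid mean in preMegE for 121, in MkP for 150 and in preCFUE for 29. The shared lower genes had it in preMegE for 19, in MkP for 20 and in preCFUE for 32. Coro1a, an actin-binding protein of leukocytes, is an example of the first kind: it was at 1247 ± 168 in CLP, 1751 ± 135 in preGM, 630.3 ± 133 in MkP and 70.9 ± 29.5 in preCFUE. Ces2g, a carboxylesterase, is one of the second: 10.9 ± 1.34 in CLP, 42.5 ± 6.10 in preGM, 88.2 ± 23.9 in MkP and 1403 ± 250.5 in preCFUE.

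Gene lists give the wider pattern, set against a median side difference of -0.011 over all genes and the shares of 9.01% and 10.2% given above. The lists and their members were chosen with earlier results of these data known. Their counts therefore describe the members and are no independent support. Some genes, among them Irf8, Satb1 and Il7r, stand in more than 1 list, so the lists are not independent of each other. Of 26 lymphoid genes, 18 were higher, 0 lower and 8 did not pass (median 1.24). Without CLP replicate 2 there were 19 higher and 1 lower. Of the 26, 17 were higher in CLP than in preGM (19 without CLP replicate 2), and the median against the megakaryocyte-erythroid mean was 2.28 for CLP and 0.051 for preGM, so the list's median was above 0 in CLP and near 0 in preGM. Il7r was part of the CLP gate, and without it 17 of 25 were higher (median 1.16). The shared members were Dntt, Il7r, Ighm, Blnk, Notch1, Satb1 and Cnn3. Cnn3, calponin 3, was 1715 to 4422 in CLP, 1185 to 1251 in preGM and 10.8 to 233 in the rest. Blnk, the adaptor of the B cell receptor, was at 691 ± 282 in CLP and 48.2 ± 11.8 in preGM, against 16.7 to 18.5 as a mean elsewhere. Bcl11a (side difference -0.26, adjusted p = 0.206) and Tcf3 (-0.35, 0.16), both lymphoid transcription factors, did not pass, but Tcf3 was called lower without CLP replicate 2 (-0.49, limma adjusted p = 0.0279).

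Of 23 granulocyte and monocyte genes, 17 were higher, 0 lower and 6 did not pass (median 1.29), and 16 of the 23 were lower in CLP than in preGM (17 lower and 1 higher without CLP replicate 2). The shared members were Mpo, Ly86, Csf1r, Gfi1 and Irf8. Mpo, the peroxidase of neutrophil granules, was 737, 837 and 723 in the CLP arrays, 7013, 6929 and 8567 in those of preGM, 26.7, 40.2, 70.8, 32.1 and 171 in those of preMegE, 63.5, 39.3 and 37 in those of MkP and 16.3, 19.8 and 66.6 in those of preCFUE. The CLP arrays were far below preGM and still above every megakaryocyte-erythroid array, the nearest being preMegE replicate 5 at 171. Csf1r, the receptor for macrophage colony-stimulating factor, was 337 to 526 in CLP, 1516 to 1990.3 in preGM and 29.8 to 148 elsewhere. Nkg7 (0.43, adjusted p = 0.0736) and Ms4a3 (0.65, 0.11) did not pass, and Ms4a3 was at 138 ± 91.7 in preGM. The neutrophil markers given above were highest in 1 array each of preGM, preMegE and MkP, and their part in these counts was not tested.

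The lympho-myeloid regulators had 9 members higher in CLP than in preGM and 4 lower (8 and 6 without CLP replicate 2). Of 27, 16 were higher, 0 lower and 11 did not pass (median 0.64; 0.63 for CLP and 0.59 for preGM against the megakaryocyte-erythroid mean), and without CLP replicate 2 there were 15 higher and 1 lower. Irf8, Irf5, Irf1, Satb1, Id2, Tcf4 and Notch1 were shared. Spi1, which encodes PU.1, was at 81.2 ± 35.3 in CLP and 145 ± 51.1 in preGM, compared with 47.8 ± 2.83 in preMegE, 48.5 ± 8.33 in MkP and 29.2 ± 5.08 in preCFUE, and was higher without being shared. Ikzf1, which encodes Ikaros, was higher by 0.64, but its low fraction was MkP (367 ± 73.3), while preMegE and preCFUE (1214 and 1416) lay above preGM (1070). Fos, an immediate-early factor, was at 1249 ± 992 in CLP and 75.5 ± 17 in preGM, with a wide spread among the CLP arrays. Notch2 (0.12, adjusted p = 0.612) did not pass.

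Of 25 cytokine receptor and signalling genes, 17 were higher, 3 lower and 5 did not pass (median 0.90). Flt3, Il7r and Kit belong to the sort, and without them, a count added after the data were seen, 15 of 22 were higher and 2 lower (median 0.89). Csf2rb, the common beta chain of the GM-CSF, IL-3 and IL-5 receptors, was at 88.0 ± 17.5 in CLP and 345 ± 59.0 in preGM, against 16.8 to 27.7 as a mean elsewhere. Il6st, the signalling chain gp130, was at 258 ± 144 in CLP and 208 ± 131 in preGM against 14.2 to 27.4. Both were shared, as were Flt3, Csf1r, Il7r and Il1r1. The 3 lower members were Kit, Ifngr1 and Epor, the erythropoietin receptor, which was at 26.9 ± 4.43 in CLP and 30.4 ± 7.44 in preGM, compared with 166 ± 39.8 in preMegE, 84.1 ± 30.5 in MkP and 231 ± 35.7 in preCFUE. Il27ra (-0.053) and Il4ra (0.19) did not pass.

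Leukocyte surface, signalling and motility genes were higher in most members. Of 25 surface and adhesion genes, 16 were higher, 3 lower (Spn, Itgb2 and Adgre5) and 6 did not pass (median 1.04), and 10 were shared. Cd34, a sialomucin of early progenitors, was 331 to 943 in CLP, 1406 to 2153 in preGM and 12 to 126 elsewhere. Emb, embigin, was at 448 ± 252 and 1135 ± 310.3 in CLP and preGM against 11.3 to 22.4 as a mean. Cd93 was at 3108 ± 424 in CLP, 1873 ± 445 in preGM, 577 ± 60.5 in MkP and 24.3 ± 5.96 in preCFUE. Itga4 (-0.028) and Itgb7 (0.02) did not pass.

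Of 28 immune receptor signalling genes, 17 were higher, 1 lower (Fyb) and 10 did not pass (median 0.73). Tyrobp, the adaptor DAP12, was 102 to 157 in CLP and 314 to 454 in preGM against 13.2 to 30.4. Plcg2, a phospholipase of antigen receptor signalling, was at 1846 ± 82.3 in CLP and 1245 ± 109 in preGM. MkP stood closest at 928 ± 148, preMegE was at 262 ± 37.3 and preCFUE at 112 ± 9.2, which left the gene just outside the shared list. Of 23 leukocyte actin and motility genes, 17 were higher, 2 lower (Fermt3 and Tagln2) and 4 did not pass (median 1.02), with 3 lower without CLP replicate 2. Lcp1, the actin bundler L-plastin, was 1549 to 2355 on the lympho-myeloid side and 71.7 to 244 on the other, and Lsp1 was at 560.5 ± 248 and 620 ± 117 against 29.8 to 38.6. Plek, pleckstrin, did not pass (0.61, adjusted p = 0.0792) and was highest in MkP (2443 ± 616).

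Antigen presentation genes were listed by class, and the classes were not tested against each other. Of 9 MHC class II genes, 6 were higher and 3 did not pass (median 0.69), with H2-Aa, H2-Eb1, H2-DMa and Cd74 shared. H2-Aa was at 252 ± 72.3 in CLP and 182 ± 56.8 in preGM against 31.4 to 65.8 as a mean elsewhere, and Cd74, the invariant chain, at 48.7 ± 9.72 and 33.1 ± 2.51 against 18.5 to 19.6. H2-Ob was at 1771 ± 735 in CLP, 363 ± 58.6 in preGM and 305 ± 45.7 in preMegE, and H2-Ab1 (0.39, adjusted p = 0.174) did not pass. Of 13 MHC class I and antigen processing genes, 1 passed, Tap2, the peptide transporter subunit (0.88 ± 0.16, adjusted p = 0.000928). That share was near the 9.01% of all genes, and the count was 3 under quantile normalization. B2m and H2-K1 did not pass (-0.14 and 0.091), and B2m was called lower without CLP replicate 2 (-0.32, limma adjusted p = 0.0151). MHC genes have near-identical copies, which the probes may not tell apart. Dendritic cell markers summed to 1442 to 1645 in CLP, 741 to 1052 in preGM and 411 to 603 in the others. Of these 9 markers 3 were higher, Itgax, Ccr9 and Tcf4, and 3 had a mean under 16 in every fraction, and their part in the class II counts was not tested.

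**Figure D4:**
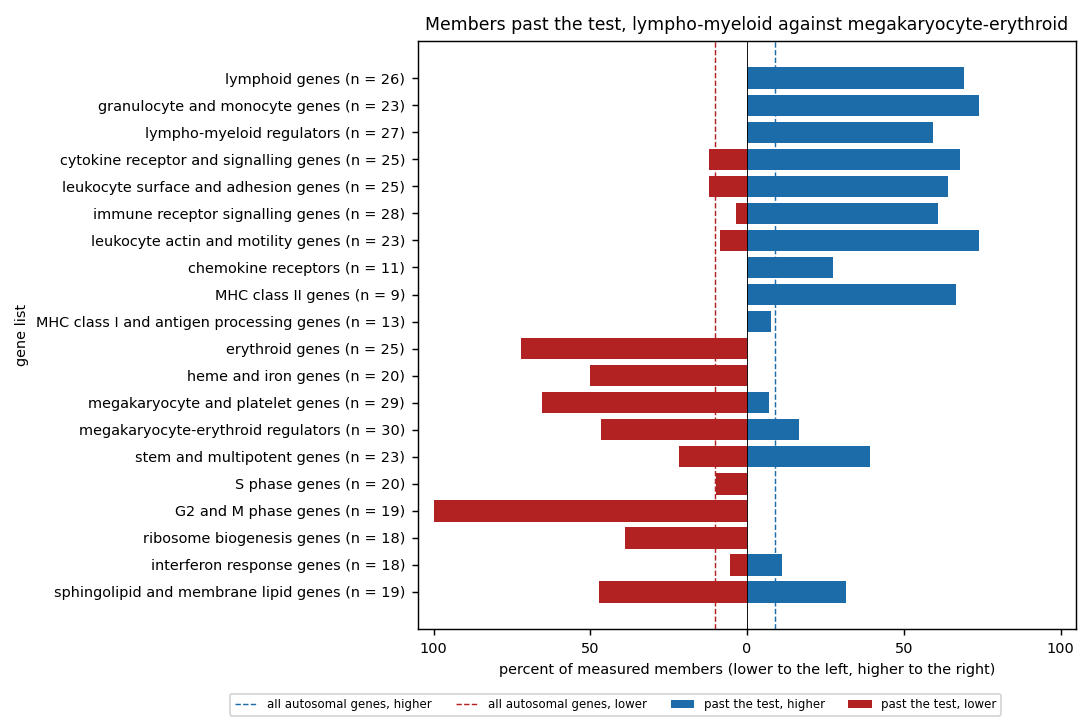
Percent of measured members of each gene list past the test, higher to the right (blue) and lower to the left (red). The dashed lines mark the shares over all autosomal genes, 9.01% higher and 10.2% lower, and all 19 G2 and M phase genes are on the lower side (18 under quantile normalization or median centring).

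Erythroid genes were the counterpart. Of 25, 18 were lower, 0 higher and 7 did not pass (median -1.67), and 18 of the 25 also differed among the megakaryocyte-erythroid fractions. Klf1, Epor, Hemgn, Mfsd2b and Ces2g were shared. Car1, carbonic anhydrase 1, was at 33.0 ± 13.3 in CLP, 267 ± 60.4 in preGM, then 4757 ± 778 in preMegE, 115 ± 76.7 in MkP and 8109.5 ± 368 in preCFUE, so MkP lay below preGM and the gene was not shared. Rhag, the Rh-associated glycoprotein, was also low in MkP (12.6 ± 1.76), near CLP (8.49 ± 1.84) and preGM (15.9 ± 5.88), against 637 ± 75.7 in preCFUE. Aqp1, a water channel, was at 13.0 ± 2.70 in CLP, 41.9 ± 15.6 in preGM, 77.0 ± 26.1 in MkP and 1069 ± 296 in preCFUE. Gypc and Tmod1 did not pass (-0.18 and -0.23). Transcripts of mature red cells summed to 94.1 to 314 in CLP, 545 to 824 in preGM and 207 to 355 in the others. Of these 5 genes 0 passed, and 2 had a mean under 16 in every fraction.

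Of 20 heme and iron genes, 10 were lower, 0 higher and 10 did not pass (median -0.62), with 0 shared, and 3 were higher under quantile normalization. Urod and Alad, enzymes of heme synthesis, were at 1698 ± 202 and 1895 ± 375 in preCFUE, 174 ± 75.4 and 187 ± 43.8 in CLP, and 461 ± 107 and 492 ± 104 in preGM. MkP was near preGM for both, at 514 ± 61.6 and 447 ± 101. Slc40a1, the iron exporter ferroportin, was at 10.5 ± 3.34 in CLP, 25.4 ± 7.21 in MkP and 62.5 ± 15.4 in preGM, against 415 ± 69.1 in preMegE and 835 ± 36.3 in preCFUE. Tfrc, the transferrin receptor, did not pass (0.28, adjusted p = 0.39) and was at 808 ± 408 in CLP and 1058 ± 260.3 in preCFUE.

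Of 29 megakaryocyte and platelet genes, 19 were lower, 2 higher and 8 did not pass (median -0.64), with 18 of 28 lower when Itga2b, a sort gene, is left out, and 25 differed among the megakaryocyte-erythroid fractions. The shared members were Gp5, Vwf and F2r. Vwf, the platelet adhesion factor, was 9.05, 9.17 and 10.7 in the CLP arrays, 14.4, 10.5 and 11.8 in those of preGM, 114, 55.2, 168, 107 and 113 in those of preMegE, 1739, 1909 and 2167 in those of MkP and 49.2, 41.9 and 60.6 in those of preCFUE. It was highest in MkP, and preMegE and preCFUE were also above both lympho-myeloid fractions. F2r, the thrombin receptor, was at 253 ± 106 in CLP and 533 ± 59.0 in preGM, compared with 4100.2 ± 394 in preMegE, 4649.7 ± 449 in MkP and 1276 ± 53.3 in preCFUE. Pf4 was at 23.5 ± 12.1 in CLP, 28.9 ± 4.94 in preGM, 50.9 ± 10.0 in preMegE and 37.2 ± 6.41 in preCFUE, so MkP was the 1 high fraction behind its side difference of -2.77. Selp, P-selectin, and Slc35d3 were the 2 higher members, and Selp was at 165 ± 14.0 in preGM and 212 ± 24.5 in MkP but 12.3 to 13.7 as a mean in the rest.

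Regulators of the megakaryocyte-erythroid side went both ways. Of 30, 14 were lower, 5 higher and 11 did not pass (median -0.32), and 16 were lower without CLP replicate 2. Gata2 was at 51.6 ± 18.5 in CLP, 335 ± 89.5 in preGM, then 1751 ± 189 in preMegE, 1105 ± 154 in MkP and 309 ± 88.5 in preCFUE, so preCFUE lay below preGM in mean and the gene was not shared. Trib2, a pseudokinase, was at 14.1 ± 4.06 in CLP, 58.6 ± 24.9 in preGM and 19.0 ± 3.86 in MkP against 1581 ± 296 in preMegE and 738 ± 85.8 in preCFUE. Lyl1, a relative of Tal1, was among the 5 higher members and shared, at 587 ± 91.1 in CLP and 701 ± 53.2 in preGM against 192 to 312 as a mean. Thus Lyl1 and Tal1 differed in opposite directions. The other higher members were Runx1, Klf3, Ikzf1 and Mecom, of which Runx1 and Ikzf1 also stand in the list of lympho-myeloid regulators. Lmo2 (-0.62, adjusted p = 0.119) and Myb (-0.0047) did not pass. Without CLP replicate 2 Lmo2 was called lower (-0.90, limma adjusted p = 0.00435).

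Stem and multipotent genes showed no single direction: of 23, 9 were higher, 5 lower and 9 did not pass (median 0.13). Hoxa9, a homeobox gene of early progenitors, was at 1694 ± 433 in CLP and 1745 ± 181 in preGM against 343 to 718 as a mean, and Erg at 402 ± 73.4 and 452 ± 9.73 against 16.5 to 176. Both were shared, with Cd34. Sox4 was at 1669.9 ± 584 and 1739 ± 383 against 1012 ± 346 in preMegE, 259.8 ± 84.3 in MkP and 145 ± 27.9 in preCFUE. Meis1 (0.13) and Angpt1 (-0.37) did not pass.

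**Figure D5:**
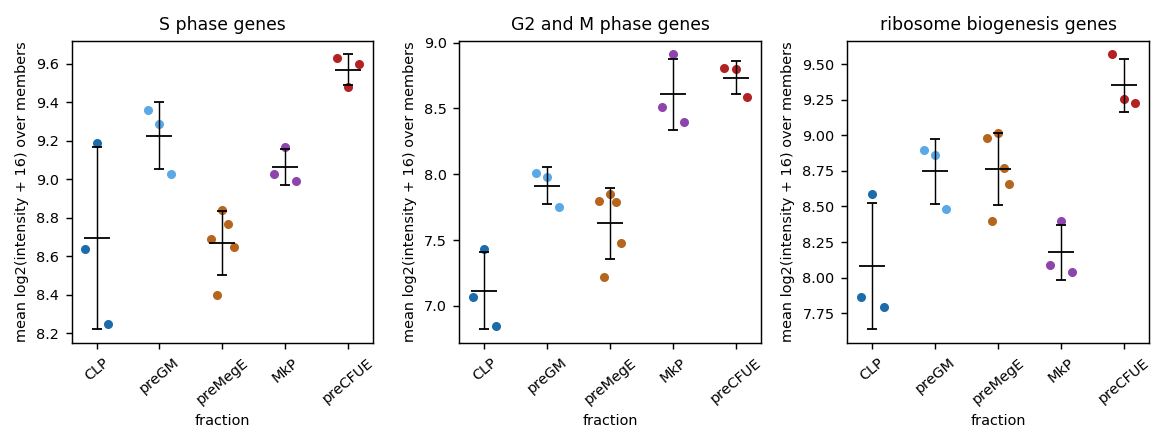
Mean log2(intensity + 16) over the members of 3 gene lists, 1 point per array, with the mean and SD of each fraction in black. For G2 and M phase genes MkP (8.61) and preCFUE (8.73) lie above CLP (7.12), preGM (7.91) and preMegE (7.63).

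Cell division genes were lower on the lympho-myeloid side, but not as a difference shared by every pair. Of 19 G2 and M phase genes, 19 were lower (median -0.77) and 0 were shared, and 18 were lower without CLP replicate 2, under quantile normalization and under median centring. Their mean log2 level was 7.12 ± 0.29 in CLP (n = 3), 7.91 ± 0.14 in preGM (n = 3), 7.63 ± 0.27 in preMegE (n = 5), 8.61 ± 0.27 in MkP (n = 3) and 8.73 ± 0.12 in preCFUE (n = 3). The preGM mean exceeded the preMegE mean in 16 of the 19 genes, so the high fractions were MkP and preCFUE. Ube2c, a ubiquitin-conjugating enzyme of mitotic exit, was 54.2 to 85.2 in CLP, 107 to 125 in preGM, 95.4 to 166 in preMegE and 288 to 514 in MkP and preCFUE. Hmmr and Nusap1, spindle proteins, had side differences of -1.44 ± 0.16 and -1.07 ± 0.20. Ccnb2, cyclin B2, was at 88.2 ± 43.6 in CLP and 392 ± 104 in preGM, above preMegE at 232 ± 71.5.

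Of 20 S phase genes, 2 were lower, Ccne1 and Tk1, and 18 did not pass (median -0.11), a share near that of all genes, and 5 were lower without CLP replicate 2. Ccne1, cyclin E1, was at 801 ± 189 in preCFUE and 107 to 194 as a mean in each other fraction. Its call was lost without CLP replicate 1 or 2, among others, and that of Tk1 without CLP replicate 1 or 3, among others. Mcm5 and Mcm7, of the replicative helicase, did not pass (-0.0038 and 0.14). Of 18 ribosome biogenesis genes, 7 were lower and 11 did not pass (median -0.38), and 11 were lower without CLP replicate 2. Rrp9 was at 272 ± 69.3 in preCFUE against 112 to 164 as a mean elsewhere. The calls of Wdr12, Polr1c and Rrp12 were lost without CLP replicate 3 (adjusted p = 0.105, 0.0816 and 0.0517) or preGM replicate 3. Ncl and Npm1 did not pass (-0.24 and -0.35), and Npm1 was called lower without CLP replicate 2 (-0.58, limma adjusted p = 0.000226).

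Markers of other cells that a gate could hold were mostly not past the test. Of 8 T and NK cell markers and 6 eosinophil markers, 0 passed, though 1 of the former did under quantile normalization and without CLP replicate 2. A mean under 16 in every fraction was found for 2 T and NK cell, 4 eosinophil and 4 macrophage markers. The same held for 3 endothelium and stroma markers and 3 mast cell and basophil markers. Such dim genes could hardly pass, so these counts do not show that a cell type was absent. Of 10 macrophage markers 1 was higher, Cd68, and of 10 endothelium and stroma markers 2 were lower, Kdr and Tek. Over all genes 9.01% were higher and 10.2% lower, so counts this small are not read as results about these cell types. Of 9 mast cell and basophil markers Mcpt8 was higher and Gata2 lower. Their sum ran from 191 to 290.2 in CLP, from 680.2 to 756 in preGM, from 1793 to 2282 in preMegE, from 1133 to 1414 in MkP and from 389 to 566 in preCFUE, and its part in the Gata2 result was not tested.

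Motifs in the 250 bases upstream were counted for the genes with a RefSeq window, 13832 autosomal genes in all, 238 of the 300 shared higher genes and 57 of the 71 shared lower genes. The PU.1 letters GAGGAAGT stood in 2.28% of all windows, in 15 of 238 shared higher windows (6.3%) and in 0 of 57 shared lower windows. Besides BC035044 and Atp8b4, printed above, the 15 included Mpo, Btla, Cd72, Cd37, Clnk and Rassf5. The GATA letters AGATAA stood in 7.32% of all windows, 7.56% of the shared higher and 10.5% of the shared lower, where the 6 holders were Icam4, Gp5, Tspan32, Epor, Ces2g and Tal1. For the RUNX letters the shares were 3.66%, 6.3% and 3.51%, and for the KLF1 letters 3.57%, 5.46% and 1.75%. The C/EBP letters stood in 8.04%, 7.14% and 7.02%, and the E-box in 12.5%, 13.0% and 12.3%. These shares are descriptions without a test, and the absence of a match says only that the letters are not in this window.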

How the data were processed

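Total RNA from 5 sorted fractions was measured on 17 Affymetrix 3-prime arrays after small-sample labelling with more than 1 round of amplification, per the design text of the series. The authors deposited a linear RMA intensity for each probe set on each array, per that text and the submitters' processing notes. The RMA version is not given in the sources used here. The text also names dChip and a filter on SD over mean, which was not applied to the deposited table. Groups and replicate numbers come from the gate in each title. A free-text description common to all arrays names another gate and was not used, and the short names follow general usage.

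Among 45101 probe sets, a single gene symbol was paired with 34945 and several symbols with 932, and 64 were controls. By gene identifier 34741 were found in RefSeq (GRCm38.p6). For each of 18193 genes the brightest probe set by mean over the arrays was kept, of which 17401 were autosomal and are reported, and 5653 of these had a mean under 16. Of 52 named genes past the test with several probe sets, 0 had another probe set past it in the opposite direction. Probe sets that did not pass do not enter this count. With the mean over probe sets 2 named genes lost their call and 3 gained one. The number of arrays limits the precision, and log2(intensity + 16) understates changes of dim genes. Array medians ran from 16.0 to 19.1.

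All arrays entered 1 limma fit (limma 3.58.1), with each fraction a term (R 4.3.3, lmFit, contrasts, eBayes, 12 residual and 2.01 prior degrees of freedom). P-values were adjusted by Benjamini-Hochberg over all 18193 genes, at 0.05, and the fit was tested on simulated data. Data handling used pandas 2.3.3 and the R package data.table, version 1.17.8, and plots matplotlib 3.10.9 under Python 3.11.15. Members, lists and the rule for named genes were chosen with earlier results of these data known. That rule took the sort genes, the 15 shared genes of each direction with the largest smallest difference over the 6 pairs, and from each list the 4 largest differences past the test with up to 2 abundant members not past it. It added the 5 unshared genes of each direction with the widest CLP to preGM gap. Other genes in the text were chosen after their values were seen. Of 560 list entries, 48 were not matched and are not analysed here. Alternatives changed the pseudocount, filter, probe set rule, scaling, weights, covariate, block, threshold and arrays. Counts without the sort genes were added after seeing the data.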

Additional observations from a re-analysis of the deposited data

Results flagged for a closer look

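In preMegE, the only fraction with over 3 arrays, 135 named genes were tested for an array far from the other 4. Such an array was found for 10 genes, where chance gives about 1 in 20. That is not far above the chance share, and the genes share the same arrays, so the tests are not independent. Replicate 3 stood apart in 6 of the 10 genes. It also had the highest mean level of the preMegE arrays in many gene lists, though not in all. Those lists include heme and iron, leukocyte actin and motility, and S phase genes, so high values there were not particular to regulators. Klf1 was at 3200.3 in replicate 3 against 1722 to 2129 in the other preMegE arrays, and Zfpm1 at 971 against 517 to 601. Bcl11a was at 2041 against 1349 to 1521 and Sox4 at 1599.8 against 680.1 to 935. Icam4, a red cell adhesion molecule, was at 266 against 138 to 169.9, and Blnk was low at 14.4 against 17.9 to 19.0. In replicate 5, Ighm was at 583 against 10.8 to 22.0 and Evl, an actin regulator, at 7.50 against 9.67 to 10.5. Mcm5 was at 1722 in replicate 2 against 2169 to 2307, and Tmod1 at 145 in replicate 4 against 70.0 to 90.7.

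For 2 of the 135 named genes CLP and preGM each differed past the limma test from the megakaryocyte-erythroid mean, CLP below it and preGM above it. Over all autosomal genes 67 had such opposite differences (0.385%), 63 of them with CLP lower. Prtn3, a neutrophil protease gene, had a CLP minus preGM difference of -6.62 (adjusted p = 3.66e-09), and Itgb7, an integrin chain of lymphocyte homing, one of -1.23 (adjusted p = 0.00148).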

How the results depend on the processing

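Leaving out 1 array at a time gave 1426 to 1672 genes higher, 1423 to 2477 lower, 241 to 314 shared higher and 58 to 74 shared lower. Genes that also differed between CLP and preGM, 1401 in all, ranged from 768 (without preGM replicate 2) to 2522 (without CLP replicate 2), with 914 and 825 without CLP replicates 1 and 3 and 802 without preGM replicate 1. Genes that also differed among preMegE, MkP and preCFUE, 1673 in all, ranged from 1290 to 2157. Quantile normalization gave 110 shared lower genes and array weights 2179 genes differing between CLP and preGM. The submitters' filter on SD over mean, which tests fewer genes, gave 874 higher, 724 lower, 906 and 1032. At an adjusted p under 0.01 there were 1065 lower, 189 and 46 shared, 566 and 908. At 2-fold or more there were 540 and 332, 162 and 37 shared, 308 and 487. For the quantile and weight results the cause was not tested. The labels do not say whether arrays with the same number in the title belong together. Correlations gave no clear sign of it, which does not decide the question. Same-numbered arrays of different fractions correlated from -0.542 to 0.508, 11 of 30 pairs over 0.1. Of 17 arrays, 2 correlated best with their own number. With the replicate block there were 1348 higher, 1329 lower, 223 and 59 shared, 867 differing between CLP and preGM and 1123 among the others.

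Of 135 named genes, 120 to 135 kept their direction and their side of the threshold under each setting that fitted all 135, as did 129 of 132 with the filter on low values and 95 of 99 with that on SD over mean. No named gene past the test changed sign. Genes that did not pass turned sign as follows. With a pseudocount of 64, Fli1 was -0.0027, Meis1 -0.029 and Sptlc2 0.0089. With the mean over probe sets, H2-K1 was -0.047, Ifi27 -0.036, Itga4 0.027, Pik3cd 0.16 and Sptlc1 -0.071. With quantile normalization, Il27ra was 0.00013, Itga4 0.023, Itgb7 -0.013, Mcm5 0.065 and Myb 0.11. With array weights, Itgb7 was -0.049, Mcm5 0.0085 and Notch2 -0.023, and with each array weighing the same, Itgb7 -0.11, Mcm5 0.06 and Meis1 -0.027. With the Gapdh covariate Mcm5 was 0.002, and with the replicate block 0.012. Without single arrays the ranges were -0.032 to 0.18 for H2-K1, -0.086 to 0.026 for Itga4, -0.081 to 0.077 for Itgb7, -0.12 to 0.1 for Mcm5, -0.14 to 0.4 for Meis1, -0.057 to 0.028 for Myb, -0.34 to 0.051 for Pik3cd, -0.018 to 0.13 for Sptlc1 and -0.1 to 0.068 for Sptlc2.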

Other observations

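Sphingolipid genes, from a list chosen with earlier results of these data known, went both ways: of 19, 9 were lower, 6 higher (5 without CLP replicate 2) and 4 did not pass (median -0.20). Mfsd2b, the exporter, was shared. Sphk1, the kinase that makes sphingosine-1-phosphate, was at 692 ± 48.5 in preCFUE (n = 3) and 10.8 to 20.7 as a mean in the other fractions. Ugcg, which makes glucosylceramide, was at 647 ± 103 in preMegE (n = 5) and 355 ± 86.5 in preCFUE, against 44.2 ± 21.4 in CLP, 82.9 ± 39.6 in preGM and 29.6 ± 11.8 in MkP (n = 3 each). Sgpp1, a phosphatase that degrades sphingosine-1-phosphate, had a side difference of -1.20 ± 0.17 (limma adjusted p = 0.000131). B4galnt1, of ganglioside synthesis, was the shared higher member.

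Of 11 chemokine receptors, 3 were higher and 8 did not pass (median 0.12), and 4 had a mean under 16 in every fraction. Cxcr4, the marrow homing receptor, was shared, at 966 ± 268 in CLP and 299.9 ± 9.69 in preGM (n = 3 each) against 101 to 111 as a mean elsewhere. Ccr9, a thymus and gut homing receptor, was at 209.7 ± 44.5 in CLP and 7.60 to 9.40 as a mean in all others. Ccr2 (0.12) and Ccrl2 (0.099) did not pass. Of 18 interferon response genes, 2 were higher, Mx1 and Gbp3, 1 was lower, Igtp, and 15 did not pass (median -0.029), shares near those of all genes, and without CLP replicate 2 there were 3 higher and 2 lower.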
